A study of Homo sapiens with 14 samples.

Results

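RING1A-only sites are the places in control DU145 cells where chromatin immunoprecipitation and sequencing (ChIP-seq) gave a RING1A peak and none of the other 6 antibodies of the series, against RING1B, BMI1, H3K27me3, EED and ubiquitylated histone H2A (uH2A, with a rabbit and a mouse antibody), gave a peak sharing even 1 bp with it. They number 28825 of the 56011 peaks in the control RING1A list, 51.5% (Clopper-Pearson 95% interval 51.0 to 51.9), and of 227479 peaks in the 14 lists of the series. The remaining 27186 RING1A peaks overlapped at least 1 other control peak and are called shared. DU145 is an established human prostate cancer cell line. The tested cells carried a stable EED knockdown (construct label sh3 in every title) and the control cells a scramble construct, and both were selected with puromycin. Each of the 7 antibodies had 1 library per cell line, so no comparison has a replicate and no p-value is given. Intervals are 95% intervals of counting error only, which treat neighbouring peaks as independent.

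RING1A and RING1B are paralogous ubiquitin ligases, and either can form the catalytic core of Polycomb repressive complex PRC1 together with a partner of the PCGF family such as BMI1. PRC1 places ubiquitin on histone H2A. In the canonical route, PRC2, whose core subunit EED binds the methylated histone tail, places H3K27me3, and chromobox proteins bring PRC1 to that mark. Variant PRC1 complexes with other PCGF partners are known to reach chromatin without H3K27me3. A RING1A-only peak is defined here by what was called and not by which complex was present.

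The make-up of the deposited lists bears on every value below. The RING1A, RING1B, BMI1 and H3K27me3 libraries share one culture description and one way of writing chromosomes, and the EED and uH2A libraries share another, so that the RING1A peaks have 3 partner lists from their own set and 3 from the other. All 2189 control RING1A peaks on chromosomes 22, X and Y are listed with a height of 0, and no RING1A peak on another chromosome is. The same held in all 8 lists of the RING1A set and in none of the 6 lists of the EED and uH2A set, so the zeros follow the chromosome and carry no measure of height. Heights below are therefore given for peaks above 0, which are 27973 of the RING1A-only sites. The height is the authors' own value, in units of their peak caller, and was not scaled between libraries.

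RING1A-only peaks were low, short and uniform. Their heights had a median of 56.0, with the middle 50% between 52.0 and 61.6 and the lowest at 38.0. The tallest reached 155.8, whereas the tallest shared peak reached 7051. A height above 100 was found in 36 RING1A-only peaks (0.125%) and in 2416 shared peaks (8.89%). When all peaks above 0 were cut into 4 classes of about equal size, RING1A-only peaks made up 72.1% of the lowest class (heights up to 53.6), 62.3% and 50.4% of the next classes, and 22.1% of the tallest (67.2 and above). The median length was 100 bp in RING1A-only and 150 bp in shared peaks. The shortest length the caller listed, 75 bp, was that of 31.6% of RING1A-only peaks, against 13.8% of shared peaks, and lengths over 300 bp were seen in 1.19% of RING1A-only and 13.5% of shared peaks. The RING1A-only peaks covered 3.52 Mb of the 9.07 Mb in the list. A short peak has less chance of overlapping anything, so length and the rule are linked, and these values describe the members without testing them.

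**Figure D1:**
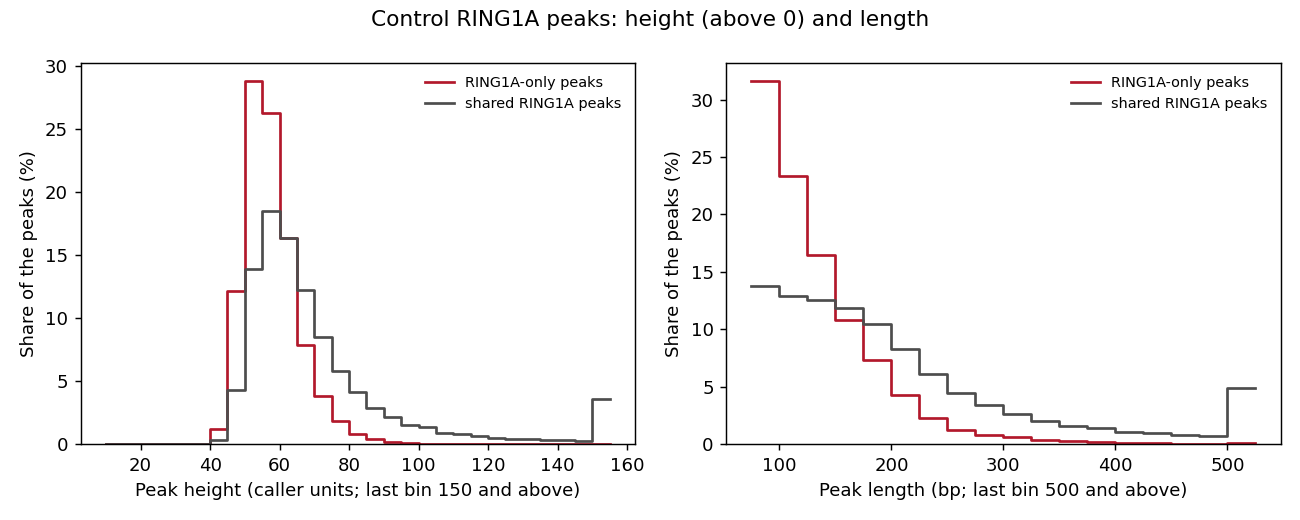
Heights (left, caller units, peaks above 0) and lengths (right, bp) of RING1A-only (red) and shared (grey) control RING1A peaks, each as a share of its own kind. RING1A-only heights crowd between 45 and 70 and 31.6% of the peaks are 75 bp long, while shared peaks run into the last bins, which hold heights of 150 and above and lengths of 500 bp and above.

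The edge of the rule cut through peaks of like height and length. The 621 RING1A-only peaks whose nearest control peak of another antibody lay under 25 bp away had a median height of 56.6 and a median length of 100 bp. The 1026 shared peaks with at most 25 bp in common with any partner peak had medians of 56.2 and 100 bp. A knockdown RING1A peak overlapped 1 of the 621 (0.161%, 0.00408 to 0.894) and 7 of the 1026 (0.682%, 0.275 to 1.40). A larger part of the members lay in company: 10261 of them (35.6%) were within 1000 bp of a control peak of another antibody, and 27587 (95.7%) within 100 kb. The median distance was 2300 bp, and 28 members were more than 1 Mb from any such peak. The nearest neighbour was most often a mouse uH2A peak (11518 members, 40.0%), then a rabbit uH2A peak (22.2%), a BMI1 peak (20.8%), an EED peak (9.18%), an H3K27me3 peak (6.49%) or a RING1B peak (1.29%). These lists differ in length, from 5155 peaks for RING1B to 35368 for H3K27me3, and H3K27me3, the longest of the 6, was seldom the nearest. Requiring that no other antibody have a peak within 1000 bp left 18564 RING1A-only sites.

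The sites were spread unevenly over the chromosomes. Chromosome 14 had the highest density, with 2938 RING1A-only peaks or 27.4 per Mb up to the largest end in any list, followed by chromosome 21 with 1189 or 24.7 per Mb. The density over all chromosomes was 9.32 per Mb. Stretches without mappable sequence were not left out of these lengths. Chromosome X had 94 peaks (0.605 per Mb), chromosome Y 60 (1.01 per Mb) and chromosome 13 218 (1.89 per Mb). Shared RING1A peaks had 34.5 per Mb on chromosome 14, 24.3 on chromosome 21, 0.713 on chromosome 13 and 0.670 on chromosome X, but 3.66 per Mb on chromosome Y. The share of a chromosome's RING1A peaks that were RING1A-only was highest on chromosome 13, at 72.7% of 300 peaks (67.2 to 77.6), and lowest on chromosome Y, at 21.7% of 277 (16.96 to 26.98). Among the other chromosomes it ran between 40.7% on chromosome 22 and 60.7% on chromosome 7. The median height of the members was 47.0 on chromosome 13 and 51.0 on chromosome 4, and reached 60.0 on chromosome 19. The copy number of these chromosomes in DU145 was not measured here.

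**Figure D2:**
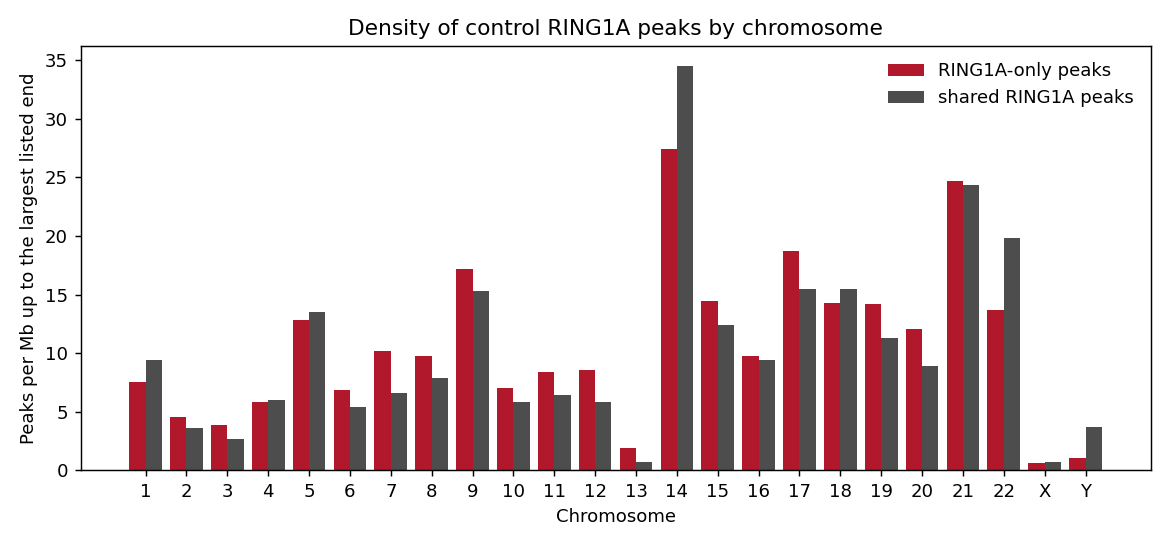
Number of RING1A-only (red) and shared (grey) control RING1A peaks per Mb on each chromosome, with the length taken up to the largest end in any list. Chromosome 14 has 27.4 RING1A-only and 34.5 shared peaks per Mb, and chromosomes 13 and X have under 2 of either.

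RING1A-only peaks often lay near each other, though less closely than shared peaks did. The nearest other RING1A-only peak was a median of 6600 bp away, and 57.9% of members (57.3 to 58.5) had one within 10 kb. For 58.8% of members the nearest RING1A peak of either kind was another RING1A-only peak, and for 41.0% it was a shared one. RING1A-only peaks made up 51.5% of the list. Joining members no more than 10 kb apart gave 17113 stretches, of which 12129 held 1 peak. There were 769 stretches of at least 5 members with 22.3% of all sites, and 31 of at least 20 members with 3.48%. Shared peaks lay closer together, with a median of 1875 bp to the next shared peak and 71.5% within 10 kb. Over all control RING1A peaks, 76.3% had a RING1A peak of either kind within 10 kb.

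The stretch with the most members was chr22:20025801-20278900 (hg19), where 108 RING1A-only peaks lay among 108 shared RING1A peaks over 253.1 kb. The next was chr14:105997326-106243675, with 94 RING1A-only and 57 shared peaks. These were followed by chr14:34998151-35126625 with 50 RING1A-only and 42 shared peaks and chr5:1059426-1194000 with 50 of either kind. Of the members in these 4 stretches, 1 kept a RING1A peak in knockdown cells, at chr14:34998151-35126625. Over all RING1A-only sites 0.205% kept one, so this low count does not set the stretches apart. Kept shared peaks were not counted by stretch. By 1-Mb windows, the most members were at 105 to 106 Mb of chromosome 14 (chr14:105000001-106000000, 218 members), 1 to 2 Mb of chromosome 5 (chr5:1000001-2000000, 212), 20 to 21 Mb of chromosome 22 (chr22:20000001-21000000, 175), the first Mb of chromosome 5 (168) and 44 to 45 Mb of chromosome 21 (chr21:44000001-45000000, 166). In the first 4 of these windows shared peaks outnumbered members, with 351, 396, 264 and 348, and in the chromosome 21 window there were 113 shared peaks. The median window held 3 members, 838 of 3110 windows held none, and 252 windows (8.10%) held 50% of them. Windows were counted from position 0 to the largest listed end, and stretches without mappable sequence were not left out. The outermost 3 Mb were measured inward from the first and the last listed peak of each chromosome. They held 18.6% of the RING1A-only peaks and 22.98% of the shared peaks. They would make up 4.65% of the length counted from position 0 to the largest listed end. Where the first listed peak is far from position 0, it need not lie near a chromosome end. No gene annotation of hg19 was used, so these places carry no gene names.

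The main comparison asked what became of the RING1A-only sites once EED was knocked down. Nearly all lacked a RING1A peak in knockdown cells: 59 of 28825 (0.205%, 0.156 to 0.264) overlapped a knockdown RING1A peak. Over the whole control RING1A list that share was 4.07%, and among shared peaks it was 2221 of 27186 (8.17%, 7.85 to 8.50). The difference, RING1A-only minus shared, was -7.96 percentage points (Newcombe interval -8.30 to -7.64). Seen from the knockdown list of 4072 RING1A peaks, 59 (1.45%) lay on a RING1A-only site, 2412 (59.2%) on a shared one and 1601 (39.3%) on no control RING1A peak. Sequencing depth is unknown for both libraries, so fewer RING1A-bound sites and a shallower knockdown library cannot be told apart.

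Counting a knockdown RING1A peak within 1000 bp as kept raised the number to 404 members (1.40%, 1.27 to 1.54), against 3293 shared peaks (12.1%) and 6.6% of the whole list. Of the 59 kept members, 25 were on chromosome 14, 10 each on chromosomes 1 and 9, 3 on chromosome 17, 2 on chromosome 16, and 1 each on 9 other chromosomes. All those on chromosome 9 lay between positions 42988876 and 70210475. Those on chromosome 1 lay between 142796451 and 150849650, but for chr1:206519051-206519150. Those on chromosome 14 lay between 31383651 and 52281200, but for chr14:72448226-72448300. The share of all members in these spans was not counted. On chromosome 14, 0.851% of members were kept (0.551 to 1.25), against 0.131% (0.0910 to 0.183) on all others, a comparison chosen after the values were seen. Shared peaks were kept at 9.75% (8.82 to 10.8) on chromosome 14 and 7.92% (7.58 to 8.27) on all others. The kept members were taller and longer than the rest, with median heights of 64.0 and 56.0 and median lengths of 150 and 100 bp. The 56 kept members with a height above 0 had a median of 45.1 in knockdown cells and 64.0 in control cells, and the height was lower in knockdown cells at 54 of them, although heights of different libraries are not on a common scale.

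RING1A-only peaks were kept less often than shared peaks in every class of height and length. The gap was narrower in the lower classes than over the whole list. It was wider in the tallest class, at -16.2 points, and in the longest class, at -13.6 points. In each of the 3 lower height classes, between 0.118% and 0.154% of RING1A-only peaks were kept, against 1.07% to 1.80% of shared peaks. In the tallest class 23 of 2971 RING1A-only peaks were kept (0.774%, 0.491 to 1.16) and 1778 of 10454 shared peaks (17.0%, 16.3 to 17.7). The shared peaks of this class run to far greater heights than the RING1A-only ones. Among peaks of height above 0, the difference was -7.56 points unweighted and -2.88 points when weighted to the RING1A-only heights. Over all peaks, it was -4.12 points within 4 length classes. At the shortest length, 75 bp, 0.154% of RING1A-only and 1.15% of shared peaks were kept.

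**Figure D3:**
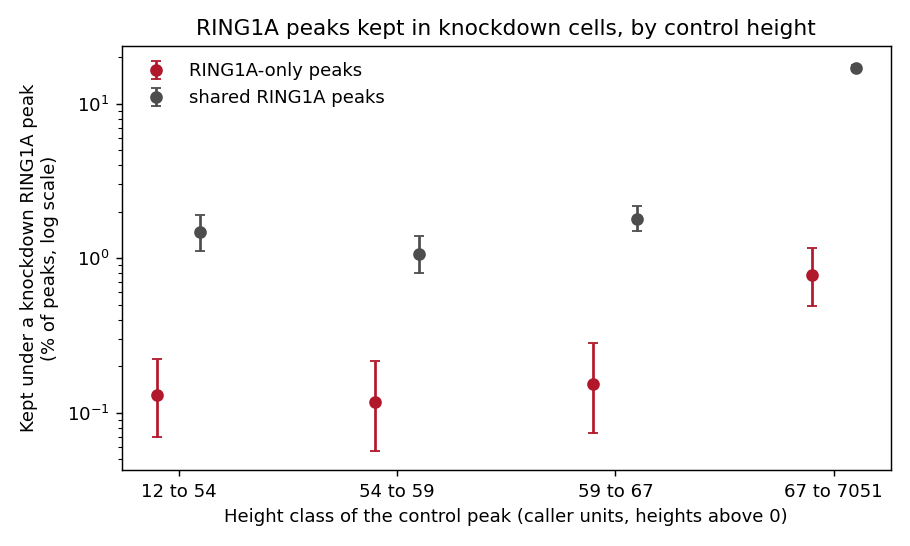
Share of control RING1A peaks that overlapped a knockdown RING1A peak (log scale), for RING1A-only (red) and shared (grey) peaks in 4 classes of control height, with Clopper-Pearson 95% intervals. In the tallest class 0.774% of RING1A-only and 17.0% of shared peaks were kept.

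The share of RING1A peaks kept differed with the partner at the site. RING1A peaks whose only partner was the mouse uH2A antibody were kept at 19 of 7054 (0.269%, 0.162 to 0.420). Those with the rabbit uH2A antibody alone were kept at 0 of 2001 (Clopper-Pearson 0 to 0.184, and up to 0.150% if a count of 0 is read as at most 3 counts), 0.205 points below the RING1A-only sites (interval of the difference 0.00764 to 0.264), and those with EED alone at 1 of 568 (0.176%). Together, 12779 RING1A peaks with EED or uH2A partners and none of RING1B, BMI1 or H3K27me3 were kept at 0.172% (0.108 to 0.261). RING1A-only sites differed from them by 0.0325 points (-0.0671 to 0.116), so no difference was detectable. Peaks with BMI1, a PCGF partner of RING1A, as their only partner were kept at 217 of 3912 (5.55%, 4.85 to 6.31), and those with RING1B alone, the paralogous ligase, at 17 of 159 (10.7%, 6.35 to 16.6). With H3K27me3 alone, the PRC2 mark, the value was 8 of 1162 (0.688%, 0.298 to 1.35).

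Any partner from the RING1A set and none from the EED and uH2A set gave 1538 kept of 7731 peaks (19.9%, 19.01 to 20.8). Such sites could carry more than 1 partner. Sites with partners from both sets were kept at 661 of 6676 (9.90%, 9.19 to 10.6). By the number of other antibodies at a site, 1.76% of RING1A peaks were kept with 1, 12.5% with 2, 19.8% with 3 and 11.2% with 4. With 5 and 6 the shares were 43.9% of 360 and 79.3% of 121 peaks. The kind and the number of partners were not separated in these sets. Defined by the EED and uH2A lists alone, the sites without a partner were 36556, of which 4.37% were kept, and their difference from the other RING1A peaks turned to 0.858 points. Defined by the RING1B, BMI1 and H3K27me3 lists alone, they were 41604, with 0.195% kept and a difference of -15.1 points. Median heights above 0 were 56.0 for RING1A-only peaks, 60.8 with EED or uH2A partners only, and 67.0 with RING1B, BMI1 or H3K27me3 partners only. Between the RING1A set and the EED and uH2A set, the kind of partner and the library set cannot be told apart. Within the RING1A set, the single-partner shares above differ between partners, and so do the peaks. Median heights, with heights of 0 counted, were 56 with H3K27me3 alone, 63 with BMI1 alone and 61 with RING1B alone. The median lengths were 100, 150 and 125 bp in that order. Whether height or length accounts for these shares was not tested.

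**Figure D4:**
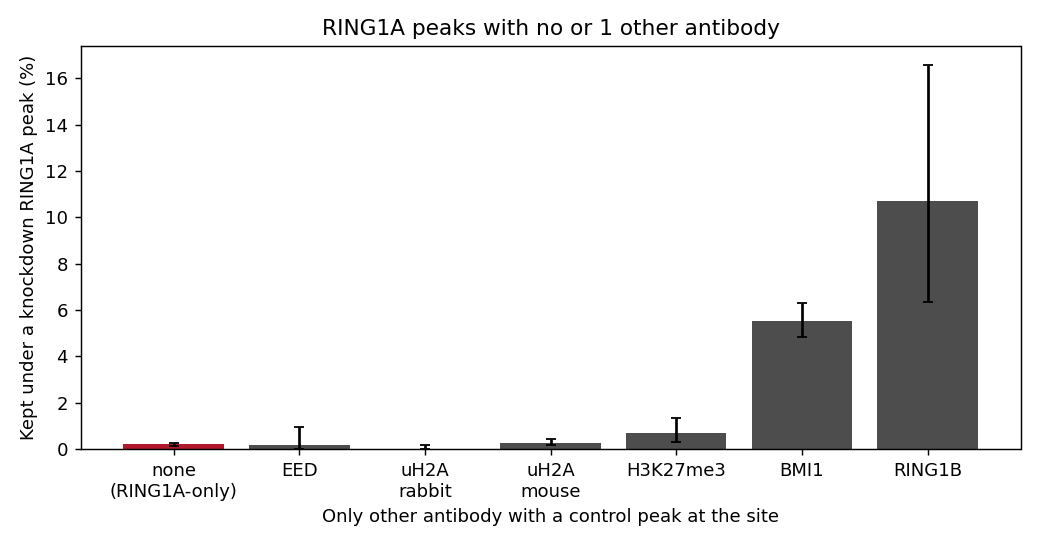
Share of control RING1A peaks that overlapped a knockdown RING1A peak, for RING1A-only sites (red) and for sites with exactly 1 other antibody (grey), with Clopper-Pearson 95% intervals. The values for RING1A-only sites and those with EED or uH2A are below 0.3%, though the EED interval reaches 0.977%. H3K27me3 alone gives 0.688%, BMI1 alone 5.55% and RING1B alone 10.7%.

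The knockdown lists of the other antibodies also passed over most RING1A-only sites. No knockdown peak of any of the 7 antibodies overlapped 27826 of them (96.5%, 96.3 to 96.7), against 66.9% of shared peaks. Another antibody had a knockdown peak at 953 members (3.31%, 3.10 to 3.52), at 17.2% of the whole list and at 31.9% of shared peaks. Since the rule allows none of these antibodies a control peak at the site, each such peak is new at that position by construction. By antibody, RING1B covered 3 RING1A-only sites (0.0104%, background 1.32%), H3K27me3 4 (0.0139%, background 3.2%), EED 20 (0.0694%, background 1.21%), BMI1 54 (0.187%, background 6%) and rabbit uH2A 117 (0.406%, background 5.54%). These backgrounds take in RING1A peaks that already had the antibody's peak in control cells, which the rule forbids to the members. Among shared RING1A peaks without a control peak of the antibody concerned, the share under its knockdown peaks was 0.210% for RING1B, 4.36% for H3K27me3, 0.677% for EED, 0.567% for BMI1 and 1.31% for rabbit uH2A. The gap to the RING1A-only sites was thus widest for H3K27me3, at -4.35 points (-4.62 to -4.10), and that for BMI1 was -0.379 points (-0.520 to -0.257).

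Mouse uH2A was the exception in number. Its knockdown peaks covered 761 RING1A-only sites (2.64%, 2.46 to 2.83), more than the knockdown RING1A list itself covered, with a background of 7.71%. Those 761 were most of the 953 sites with any other antibody. Among the 12022 shared RING1A peaks without a control mouse uH2A peak, 529 (4.40%, 4.04 to 4.78) gained one, and RING1A-only sites were 1.76 points lower (interval of the difference -2.18 to -1.36). The mouse antibody had 3370 knockdown peaks with no control mouse peak under them. Of these, 727 (21.6%) lay on the 28825 RING1A-only sites and 512 (15.2%) on the 12022 shared peaks, a smaller group. For the rabbit antibody to the same mark, 109 of 3421 such peaks (3.19%) lay on a RING1A-only site. Another 225 (6.58%) lay on the 18947 shared peaks without a control rabbit uH2A peak. The mouse and rabbit knockdown lists held 7160 and 11327 peaks.

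The members under a mouse uH2A knockdown peak had a median height of 62.0, against 56.0 for the other members, and a median length of 150 bp, against 100 bp. A control mouse uH2A peak lay within 1000 bp of 296 of them (38.9%), and of 6261 of all 28825 members (21.7%). They were also more often found close to other antibodies. The share of members under a mouse uH2A knockdown peak was 3.75% within 1000 bp of a control peak of another antibody, 2.39% at 1 to 10 kb, 1.65% at 10 to 100 kb and 0.808% (0.388 to 1.48) beyond. By chromosome it was highest on chromosome 14, at 5.85% (172 sites), and chromosome 22, at 5.30% (37 of 698 sites), and no member on chromosome X or Y had one. The same shares of shared peaks were not counted by chromosome. Of the 59 sites where RING1A was kept, 11 also had a mouse uH2A knockdown peak, and 46 had none of any other antibody. No member was covered by knockdown peaks of more than 2 antibodies, and 19 were covered by 2.

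**Figure D5:**
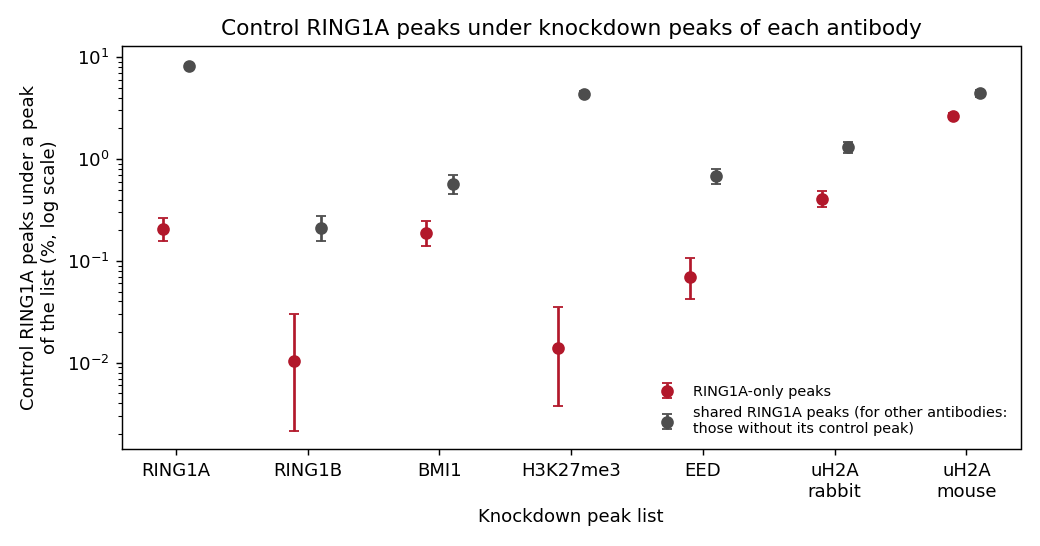
Share of RING1A-only (red) and shared (grey) control RING1A peaks that overlapped a knockdown peak of each of the 7 antibodies (log scale), with Clopper-Pearson 95% intervals; for antibodies other than RING1A, the shared peaks are those without a control peak of that antibody. The RING1A-only value is highest for mouse uH2A, at 2.64% against 4.40% of such shared peaks, and the H3K27me3 values are 0.0139% and 4.36%.

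The tallest RING1A-only site was also the tallest kept one. At chr14:32672576-32672925 the RING1A height was 68.9 in knockdown and 155.8 in control cells, and a mouse uH2A knockdown peak of height 37.7 overlapped it. A control mouse uH2A peak lay 400 bp away, outside the site. The next tallest kept sites were chr1:147711901-147712125, with heights of 47.3 in knockdown and 108.8 in control cells, and chr1:145008526-145008675, with 61.8 in knockdown and 107.0 in control cells. They were followed by chr9:66529976-66530300, with 45.2 in knockdown and 105.8 in control cells, and chr1:142796451-142796625, with 47.2 in knockdown and 99.2 in control cells. The first 4 of these 5 had a mouse uH2A knockdown peak, and each of the 5 had a lower RING1A height in knockdown than in control cells. The 5 were picked for their control height, and heights of different libraries are not on a common scale. Their lower knockdown heights therefore carry no measure of loss.

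Among the tallest sites without a knockdown RING1A peak, chr14:31632151-31632375 (control height 138.8) instead had a rabbit uH2A knockdown peak of height 41.1, and its nearest knockdown RING1A peak was 2775 bp away. At chr2:133033276-133033450 (133.8) a knockdown RING1A peak lay 25 bp from the site, so the call there turns on the overlap rule. A mouse uH2A knockdown peak of height 45.5 lay on chr14:32716076-32716200 (128.4). At chr1:145081126-145081300 (116.0) and chr17:21230326-21230500 (115.8) no antibody had a knockdown peak, and the nearest knockdown RING1A peaks were 675 and 9500 bp away. These tall members are not typical of the rest.

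The longest RING1A-only peak, chr9:33387101-33387825, spanned 725 bp at a height of 79.0, with a control BMI1 peak 150 bp away and no knockdown RING1A peak within 3903975 bp. The next, chr18:8062676-8063350 (675 bp, height 83.0), stood 33375 bp from the nearest control peak of another antibody, an EED peak, and was covered by a BMI1 knockdown peak of height 50. Next came chr1:146009301-146009950 (650 bp, height 87.0), which had a BMI1 control peak 1900 bp away and no knockdown peak of any antibody on it. The first 3 sites at the median height in coordinate order, chr1:449676-449750, chr1:659951-660075 and chr1:2600776-2600875, were 75, 125 and 100 bp long. None had a knockdown peak on it, and the nearest knockdown RING1A peaks were 84125, 12150 and 14250 bp away.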

How the data were processed

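Peak lists of 7 antibodies in DU145 cells with an EED knockdown and in scramble control cells were used, 1 library for each. The submitters' processing notes name Bowtie and the build hg19. The Bowtie version and any use of an input library are not given. The deposited lists are named for the HPeak caller, 1 list to a library, and hold a height per peak, taken as the authors' signal, and a negative score of unstated definition that was left out of all comparisons. Depth is unknown, so precision rests on peak numbers.

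The chromosome prefix was removed, 23 and 24 were taken for X and Y, and overlap meant at least 1 bp in common. Software was Python 3.11.15 (numpy 2.4.6; pandas 2.3.3; scipy 1.17.1; matplotlib 3.10.9). Shares carry Clopper-Pearson and differences Newcombe intervals at the 95% level. Counting of overlaps was checked on simulated lists. The rule for named sites took the 5 tallest kept, the 5 tallest not kept, the 3 longest, the 3 nearest the median height and the 3 under most knockdown antibodies, with the densest windows, stretches and chromosomes. Members, lists and this rule were chosen with earlier results of these data known. Base composition and repeats are not analysed here, for want of an hg19 genome.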

Additional observations from a re-analysis of the deposited data

How the results depend on the processing

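No paired analysis was possible because each group has 1 library. RING1A-only sites were 51.5% of the list, 0.205% were kept, the kept difference from shared peaks was -7.96 points, 3.31% lay under another antibody in knockdown cells, the median height was 56.0, the median length 100 bp, and 57.9% had another within 10 kb. Of 64 values under alternatives, 18 stayed within the interval of the reported value, 45 moved outside it and 1 changed direction. With overlaps of at least 50% of the RING1A peak the values were 58.1%, -5.84 points, 2.74%, height 56.2 and 62.0%. With peaks within 1000 bp counted as overlapping they were 33.1%, 0.302%, -9.42 points, 4.93%, height 55.2 and 41.5%. With heights above 0 they were 52.0% and -7.56 points, and on autosomes -7.59 points. Limited to peaks of median height or taller, which drops every peak of height 0, they were 37.5%, 0.323%, -10.5 points, 5.23%, height 63.2, 150 bp and 41.4%. With the RING1B, BMI1 and H3K27me3 lists alone as the rule they were 74.3%, -15.1 points, 8.55%, height 57.0, 125 bp and 69.0%. With the EED and uH2A lists alone they were 65.3%, 4.37%, 0.858 points (the reversal), 9.54%, height 56.6, 125 bp and 65.3%; the cause was not tested. Merging RING1A peaks within 1000 bp gave -7.27 points and 3.01%. Knockdown peaks within 1000 bp gave 1.40%, -10.7 points and 14.3%. The difference was -4.32 points within 4 height classes, with heights of 0 in the lowest class, and -4.12 within 4 length classes. Unless limited to heights above 0, the median heights in this section also counted heights of 0. Another member lay within 1 kb for 20.5% and within 100 kb for 91.5%. Added after the data were seen, leaving out chromosome 14 gave 0.131% kept and 2.98% under another antibody, and 4 classes of heights above 0 gave -2.88 points. Depth is unknown, so a site without a knockdown peak may lie under the threshold of that library.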
